A study of Danio rerio with 36 samples.

Results

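The nuclear genes of oxidative phosphorylation (OXPHOS) were followed through zebrafish development in kctd15 mutant and wild-type animals. Members were chosen by symbol alone, as every gene of the deposited gene table whose symbol begins like a subunit of one of the 5 OXPHOS complexes (nduf with a letter and a digit, sdha to sdhd, uqcr, cox4 to cox8, atp5). The rule found 91 of 30490 genes. By known role these were 36 genes of complex I, 5 of complex II, 8 of complex III, 22 of complex IV and 15 of complex V, the ATP synthase. The rule also took in sdhaf1 to sdhaf4, 4 assembly factors of complex II, and atp5s (now dmac2l), which is not a subunit. All were kept and are counted among the members, and the assembly factors are also described on their own. RNA of whole animals was sequenced at 6 stages: 1 somite, 25 hpf (hours post fertilization) and 2 days, labelled as embryos, and 5, 9 and 14 days, labelled as larvae. One group carried the kctd15 mutation, kctd15 being a gene for a BTB-domain protein, and the other was wild type, with 3 biological replicates in each of the 12 groups and 36 libraries in all. Strain, number of animals behind a library and the kctd15 paralog that was hit (kctd15a or kctd15b) are not in the labels.

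OXPHOS takes electrons from NADH at complex I and from succinate at complex II, passes them through ubiquinone to complex III, through cytochrome c to complex IV, and uses the proton gradient that results to make ATP in complex V. Most subunits are encoded in the nucleus and a few in mitochondrial DNA, and each complex is built with the help of dedicated assembly factors. Complex IV, cytochrome c oxidase, differs from the others in that several of its nuclear subunits exist as gene pairs whose members are used in different tissues, which in mammals include isoforms of heart and skeletal muscle.

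Levels are given as CPM, estimated counts scaled to the effective size of each library. No gene lengths were used, so CPM compares 1 gene between libraries and not 1 gene with another. Libraries held 5.51 to 12.5 M estimated counts, and the 25 hpf libraries differed in depth by genotype, with 5.51, 6.67 and 6.12 M in mutants against 7.93, 10.8 and 10.4 M in wild type. kctd15a RNA was higher in mutants at every stage, with a mean of 74.3 CPM in mutant and 22.8 CPM in wild-type embryos at 25 hpf. kctd15b RNA was higher in mutants at every stage but 1 somite, with a mean of 20.3 against 9.39 CPM at 2 days. Neither level checks the genotype labels. Among the wild-type libraries at 2 days, replicate 3 stood apart for the members, with a summed level of 11075 CPM against 14322 and 13106 CPM in replicates 1 and 2. In bulk RNA of whole animals, fewer cells of a type and less RNA per cell cannot be told apart.

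Most members shared a rise from 1 somite. Together they took 0.558% of all counts in mutants and 0.583% in wild type at 1 somite, and 1.54% in each genotype at 9 days, the highest stage. Of the 89 members measured well enough for a fit of all 36 libraries, 69 followed the mean of the other members over the 12 groups with a Pearson r above 0.8, the median r being 0.90. These 12 points share libraries and stages between genes, so r is a description of the shape. Nearly all members were low at 1 somite, so a high r need not mean like courses later. Between 2 and 5 days in wild type sdha (r 0.86) went from 184 to 416 CPM and atp5g1 (r 0.91) from 372 to 226 CPM. The share of all genes with such an r is not given here. The median span between a member's lowest and highest group was 1.202 log2 units, against 2.36 for all genes fitted. The median spread within a group was 0.16 against 0.25 log2 units (SD). Members and all genes were not matched for level, so these values do not show that members were steadier than genes of like level.

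**Figure D1:**
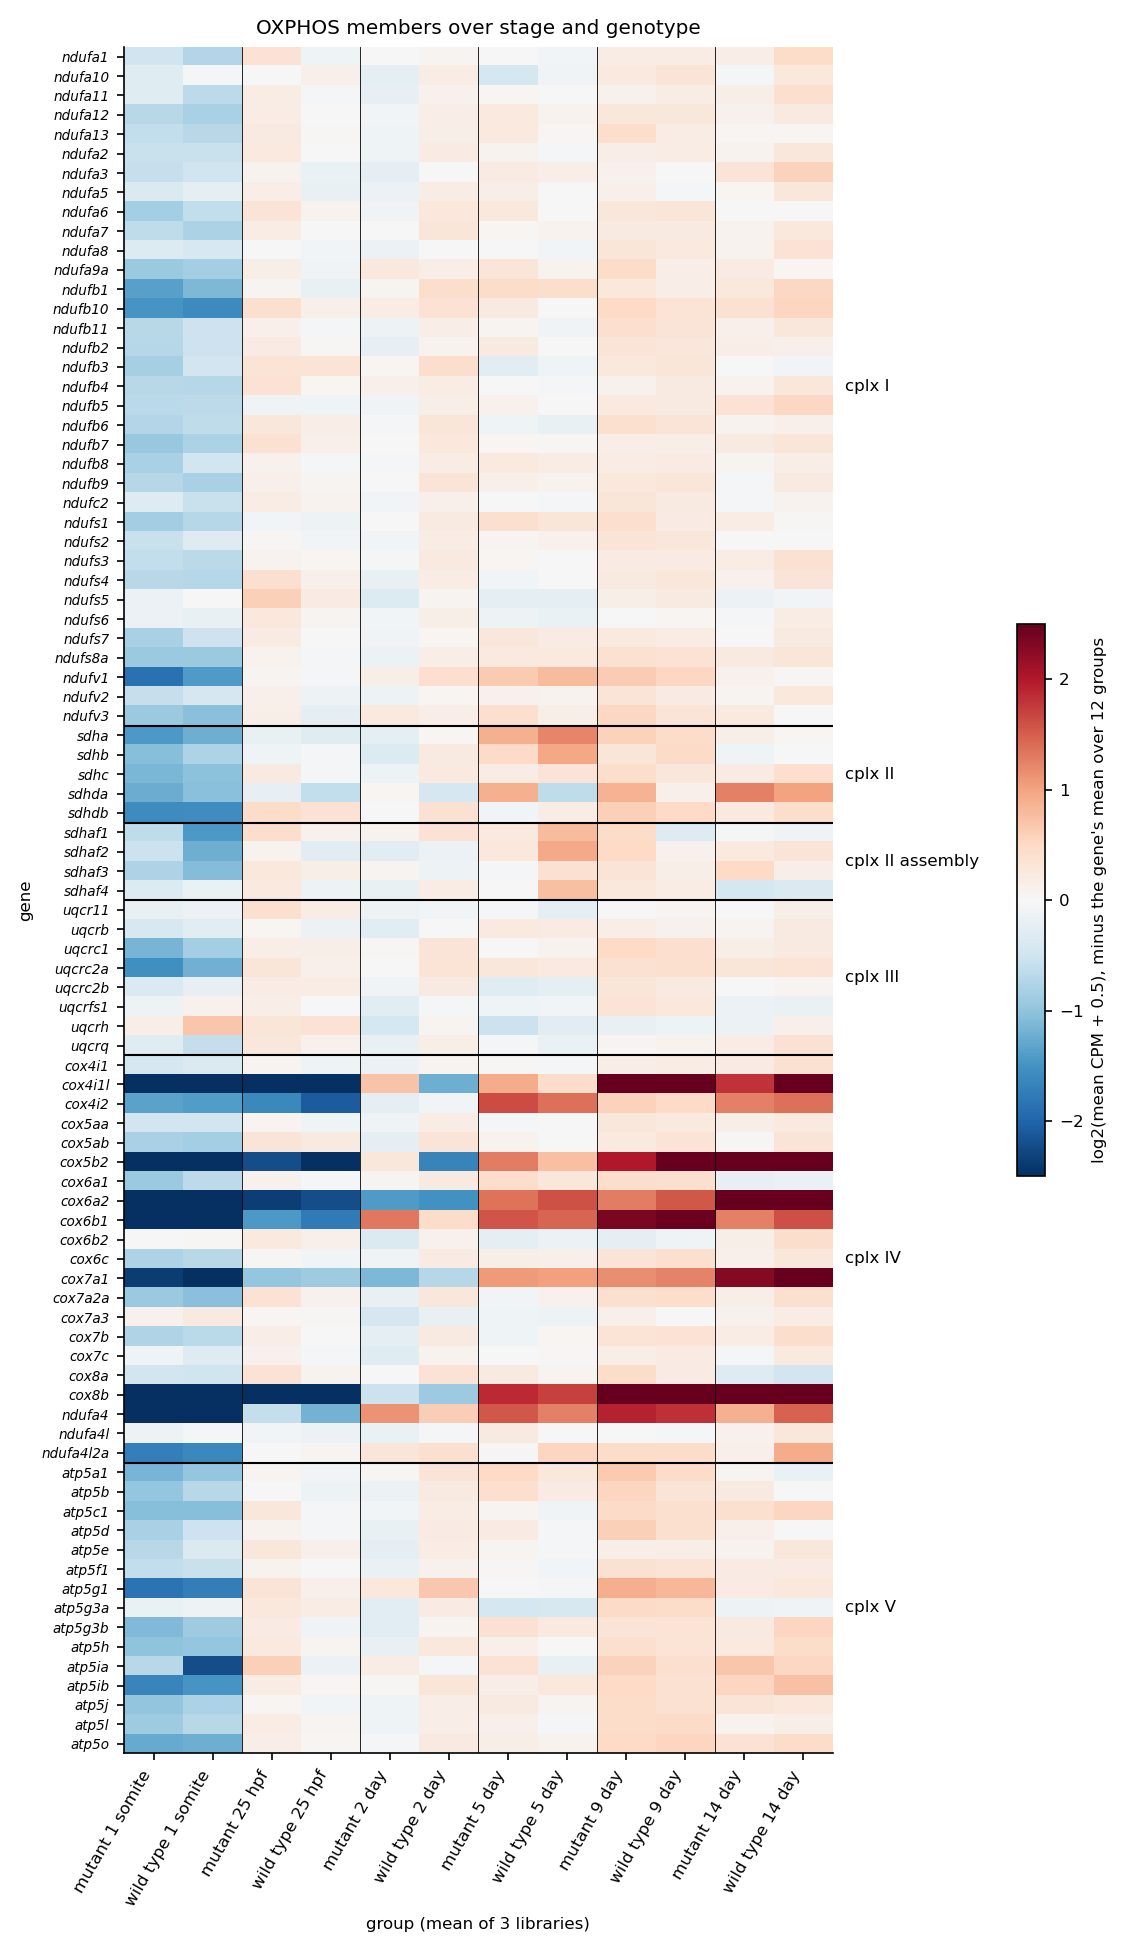
Mean level of each member in the 12 groups (columns, stage by stage with mutant left of wild type), as log2(CPM + 0.5) minus the gene's own mean, grouped by complex; atp5s is not drawn, and colours stop at the ends of the bar. Nearly all rows are blue at 1 somite, and a few complex IV rows (cox4i1l, cox4i2, cox5b2, cox6a2, cox6b1, cox7a1, cox8b, ndufa4) run from deep blue to deep red.

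A few members did not follow the mean of the others. uqcrh, the hinge subunit of complex III that lies beside cytochrome c1, had an r of -0.61. Its wild-type level was highest at 1 somite, with 217, 209 and 239 CPM, and lowest at 5 days, with 109.8, 115 and 115 CPM. The ranges of these 2 stages lay apart, but the stages were picked as the highest and lowest, so that separation is no test. cox7a3 (now cox7a2l), known in mammals as a factor that joins complexes III and IV into supercomplexes, had an r of -0.16, and cox6b2, a subunit on the outer face of complex IV, one of -0.04. Both stayed within a span of 0.65 and 0.78 log2 units over the 12 groups.

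The rise at the start was the broadest step in wild type. From the 25 hpf and 1 somite libraries, 84 members could be tested, and 74 rose and 2 fell by edgeR's quasi-likelihood test (adjusted p under 0.05 over all genes tested), against 41.7% of all genes called higher and 35.2% called lower in that step. Their median log2 fold change was 0.76, against 0.12 over all genes tested. At 1 somite alone 80 members met the filter on low counts. The rest of those tested in this step met it through the 25 hpf libraries. All 15 subunits of complex V, 33 of 35 of complex I, 4 of 4 of complex II, 13 of 17 of complex IV and 5 of 8 of complex III rose. The other members that rose were 3 of the 4 complex II assembly factors and atp5s.

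ndufa4 (now ndufa4b), a small subunit known in mammals to belong to complex IV despite its name, showed the largest change of these. It had 13.5, 14.5 and 17.4 CPM at 25 hpf against 1.15, 0.891 and 0.967 CPM at 1 somite, and the log2 fold change was 3.96 ± 0.23 (adjusted p = 5.74e-10). At 1 somite alone ndufa4 did not meet the filter on low counts. It was tested in this step through its 25 hpf libraries, so the size of its rise is uncertain. atp5ia (now atp5mea), a paralog of subunit e of the ATP synthase, which helps hold ATP synthase dimers together, had 21.0, 18.4 and 21.3 against 3.89, 4.46 and 4.95 CPM, a log2 fold change of 2.22 ± 0.16 (adjusted p = 5.43e-09). Neither gene's groups overlapped, as was so for 78.3% of all genes tested in that step. Other genes that rose included sdhdb, a membrane anchor of complex II (log2 fold change 1.98), atp5g1, a gene of the c-ring of the ATP synthase (1.91), ndufb10 of the membrane arm of complex I (1.79) and sdhaf1 (1.76). The 2 that fell were uqcrh, with a log2 fold change of -0.29 ± 0.090 (adjusted p = 0.00798), and cox4i2, an isoform of subunit 4 of complex IV, with -0.72 ± 0.27 (adjusted p = 0.0243). Scaled by library size only, which moved the median of all genes to 0.42, uqcrh stood at 0.0064 and cox4i2 at -0.42 without passing, with 80 members called higher and 0 lower.

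Later wild-type steps touched fewer members. Between 25 hpf and 2 days, 36 of 85 rose and 0 fell, beside 30.6% and 29.1% of all genes, with a median log2 fold change of 0.26 against -0.01 over all genes. Between 2 and 5 days, 16 of 88 rose and 10 fell (all genes 30.8% and 30.2%), and among the 10 that fell were atp5g1 (-0.73), atp5g3a (-0.62) and uqcrc2b, a core protein of complex III (-0.46). With library size as the sole scaling, 19 rose and 6 fell. Between 5 and 9 days, 39 of 88 rose and 6 fell (25.4% and 23.9%), with atp5g1 rising again by 0.90 and atp5g3a by 0.89. Scaled by library size only, 17 rose and 9 fell. Another c-ring gene, atp5g3b, did not share this fall and rise, with wild-type means of 497, 561 and 602 CPM at 2, 5 and 9 days. Between 9 and 14 days, 7 of 89 rose and 9 fell (9.32% and 7.46%), or 4 and 25 when scaled by library size only. Steps into and out of 2 days leaned on wild-type replicate 3 of that stage. Without it, 63 members rose into 2 days, and 13 rose and 34 fell out of it.

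**Figure D2:**
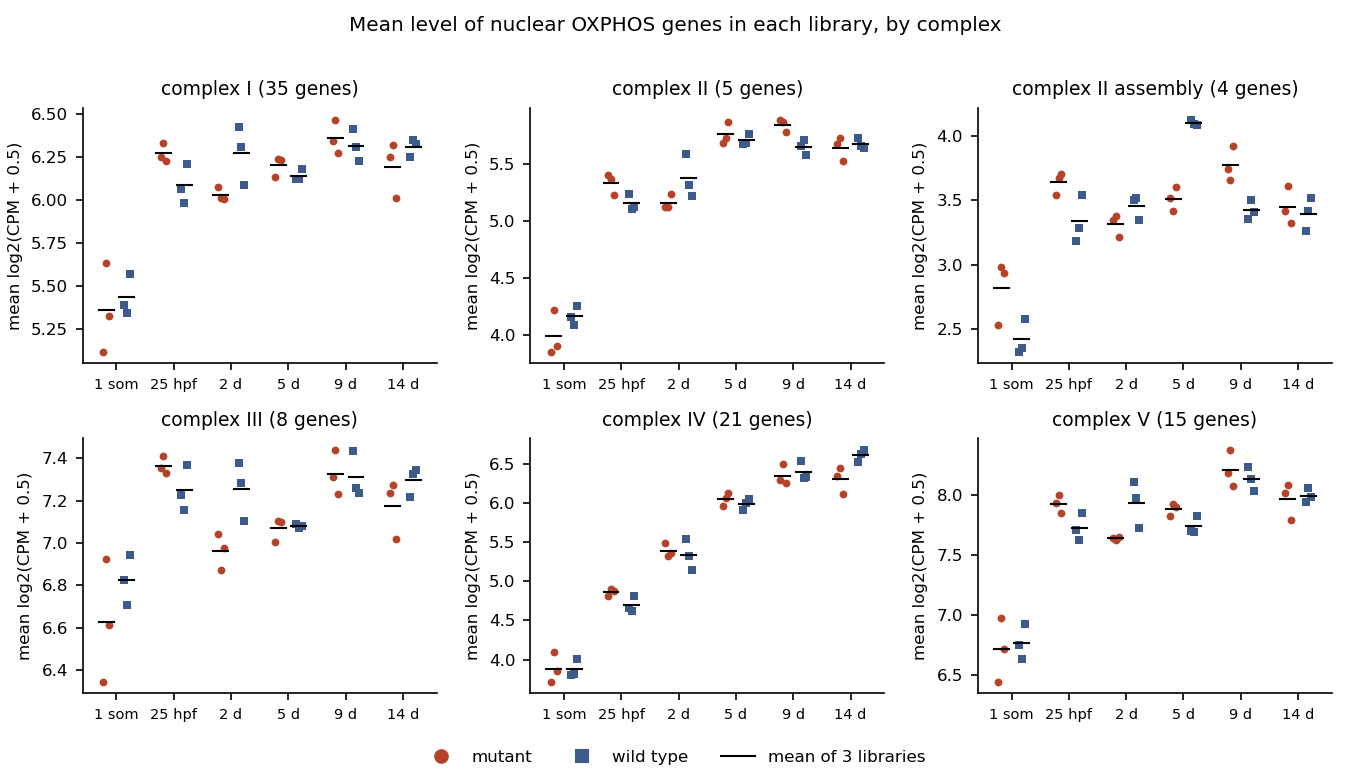
Mean log2(CPM + 0.5) of the members of each complex in every library, by stage, with mutant points left of wild-type points and a bar at the mean of 3 libraries. Complex IV has its lowest points at 1 somite and its highest wild-type points at 14 days, and the complex II assembly factors stand highest in wild type at 5 days.

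Most of the widest changes over development were in complex IV. Of the 9 members whose group means spanned more than 3 log2 units, 8 belonged to complex IV: cox4i1l, cox4i2, cox5b2, cox6a2, cox6b1, cox7a1, cox8b and ndufa4. They are described together because of that span, which was read from these values. The median span of all genes fitted was 2.355, and the share of all genes above 3 is not given here. At 1 somite the wild-type means of cox4i1l, cox5b2, cox6a2 and cox8b were 0, 0.040, 0 and 0.037 CPM. The 0.5 added to CPM thus sets the low end of their spans. In mammals COX6A2, COX7A1 and COX8B are the forms of heart and skeletal muscle, and COX4I2 is a form of subunit 4 expressed in lung.

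cox6b1 was close to absent at 1 somite, with 0.123, 0 and 0.0989 CPM in mutants and 0, 0.446 and 0.725 CPM in wild type. In wild type it stood at 5.09, 4.43 and 4.89 CPM at 25 hpf, 28.4, 22.7 and 21.4 CPM at 2 days, 47.0, 52.1 and 48.4 CPM at 5 days, 112, 90.5 and 92.9 CPM at 9 days and 70.0, 47.1 and 47.2 CPM at 14 days. It rose between 25 hpf and 2 days (log2 fold change 2.41 ± 0.16, adjusted p = 2.11e-08) and again between 5 and 9 days (1.04 ± 0.12), and fell between 9 and 14 days (-0.84 ± 0.17, adjusted p = 0.00658). Its highest wild-type mean was at 9 days, as were those of ndufa4 and cox4i1l.

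cox6a2 was among those that rose in the last step. Its wild-type level was 1.17, 0.603 and 0.509 CPM at 2 days, 9.85, 9.07 and 12.3 CPM at 5 days, 11.4, 8.47 and 10.5 CPM at 9 days and 57.1, 51.5 and 55.3 CPM at 14 days. The steps were a log2 fold change of 3.74 ± 0.31 between 2 and 5 days and 2.44 ± 0.14 between 9 and 14 days (adjusted p = 3.74e-06), both without overlap of the groups. At 2 days cox6a2 was near the floor and did not meet the filter on low counts. The first of the 2 steps was thus tested through its 5 day libraries, and its fold change is uncertain. Of all genes tested, 65.9% and 35.2% did not overlap in these 2 steps. cox7a1 rose in the same 2 steps, by 1.81 and 1.37. cox8b rose between 2 and 5 days (2.77) and between 5 and 9 days (1.12). cox4i2 went another way, with 26.1, 30.0 and 32.8 CPM at 5 days and 15.1, 16.9 and 15.05 CPM at 9 days, a log2 fold change of -0.88 ± 0.13 (adjusted p = 0.000324), and rose again by 14 days (0.92). Markers of fast muscle, a list of 18 measured genes, also rose between 9 and 14 days in 15 of 18 cases, at a summed level of 113753 to 128272 CPM at 14 days against 61274 to 70634 CPM at 9 days. The same wild-type sum did not rise between 2 and 5 days, at 63171 to 72780 CPM and 58093 to 61371 CPM. Its ranges at 5 and 9 days overlapped. The part of these markers in the levels was not tested.

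The share of these genes in the CPM of a pair, uncorrected for length, followed no single course. In wild type cox8b made up 0.201 ± 0.174% of cox8b and cox8a at 25 hpf, 1.83 ± 0.892% at 2 days, 13.4 ± 0.387% at 5 days, 22.9 ± 1.59% at 9 days and 38.7 ± 0.707% at 14 days (SD, n = 3). The wild-type share of cox6a2 in cox6a2 and cox6a1 was 3.82 ± 0.691% at 9 days and 24.0 ± 2.77% at 14 days, and that of cox7a1 in cox7a1 and cox7a2a was 15.9 ± 0.951% and 32.9 ± 2.21%. These shares were higher at 14 than at 9 days, whereas those of cox6b1, ndufa4 and cox4i1l were lower. In wild type cox6b1 made up 13.7 ± 5.36% of its pair with cox6b2 at 14 days and 28.5 ± 2.03% at 9 days, ndufa4 23.9 ± 1.45% and 33.3 ± 2.43% of its pair with ndufa4l, and cox4i1l 5.45 ± 0.811% and 9.68 ± 2.06% of its pair with cox4i1. cox4i2 made up 8.33 ± 1.07% of its pair with cox4i1 at 5 days, 3.96 ± 0.395% at 9 days and 6.30 ± 0.0492% at 14 days in wild type. In mutants at 14 days the share was 29.5 ± 2.28% for cox8b, 17.9 ± 0.706% for cox6a2, 32.9 ± 4.04% for cox7a1, 12.7 ± 0.542% for cox6b1, 19.0 ± 0.932% for ndufa4, 3.57 ± 0.732% for cox4i1l and 6.66 ± 0.707% for cox4i2. Pairs with similar sequences can exchange reads in transcript quantification, so these shares and the levels of cox6b1, ndufa4 and other close copies are less certain than those of single genes.

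**Figure D3:**
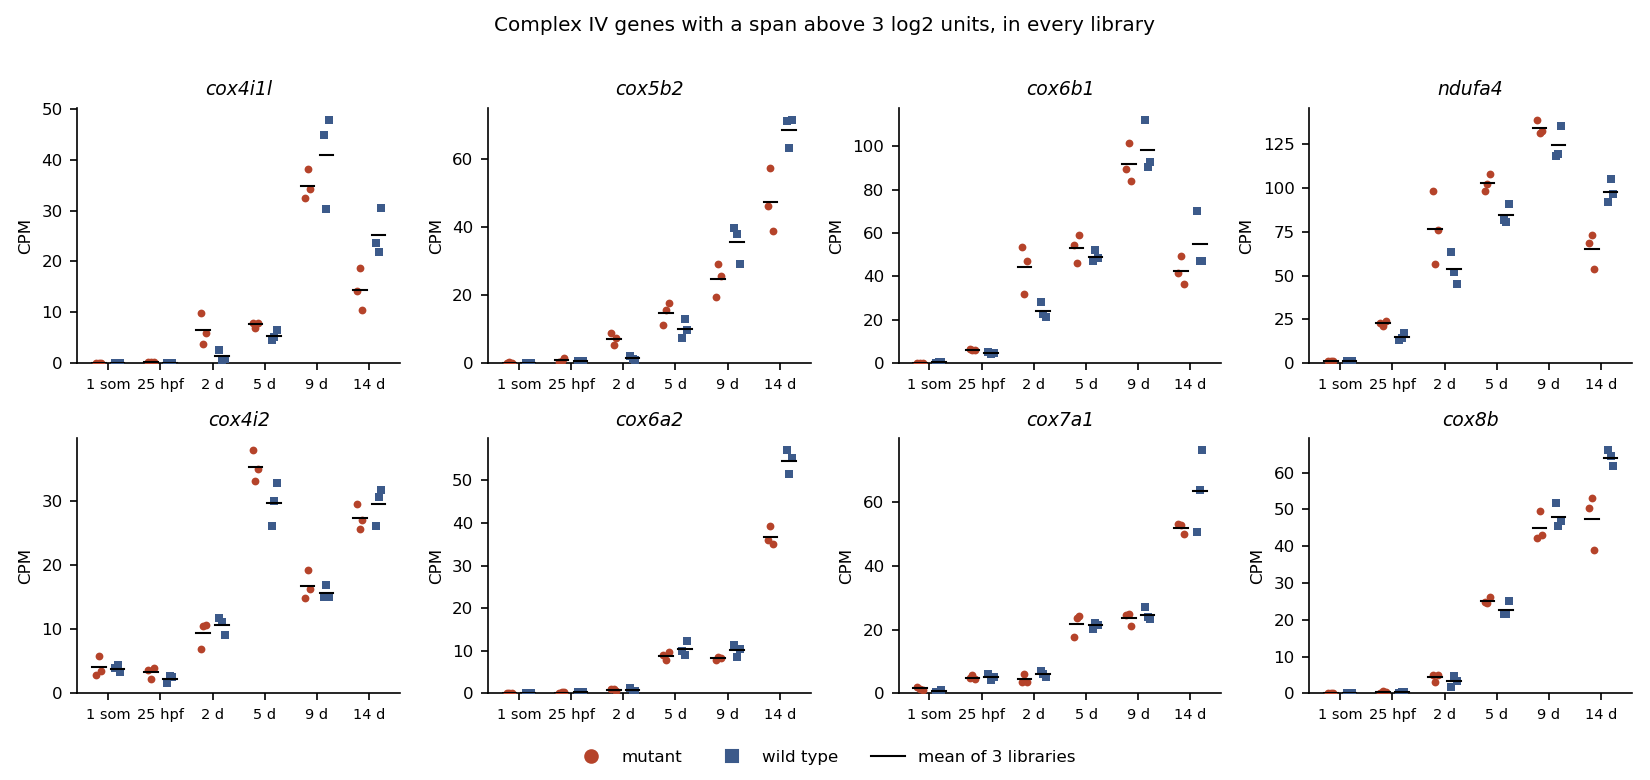
CPM of the 8 complex IV genes with a span above 3 log2 units in every library by stage, with mutant circles left of wild-type squares and a bar at the mean of 3 libraries; each axis starts at 0. At 2 days the mutant circles of cox4i1l, cox5b2 and cox6b1 lie above all wild-type squares, and at 14 days the mutant circles of cox4i1l, cox5b2, cox6a2, cox8b and ndufa4 lie below them.

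Mutants differed from wild type in some of these genes at 2 days. 3 members were higher in mutants by the test, and all belonged to this set of complex IV genes. cox4i1l and cox5b2 were near the floor in wild type and met the filter on low counts through the mutant libraries, so their fold changes are uncertain. With no such filter, all 6 members called at that stage, in either direction, were still called. cox5b2, a second gene for subunit 5b, had 8.75, 5.43 and 7.35 CPM in mutants against 2.21, 1.21 and 1.02 CPM in wild type, without overlap, a log2 fold change of 2.34 ± 0.32 (adjusted p = 0.00185). cox4i1l had 9.77, 3.72 and 5.85 CPM in mutants against 2.60, 0.483 and 0.892 CPM in wild type, a log2 fold change of 2.35 ± 0.50 (adjusted p = 0.0165). cox6b1 had 53.4, 32.1 and 47.1 CPM in mutants against 28.4, 22.7 and 21.4 CPM in wild type, a log2 fold change of 0.94 ± 0.18 (adjusted p = 0.0102). The cox5b2 call was kept whichever library was left out, that of cox6b1 was lost without mutant replicate 3 (adjusted p = 0.0518), and that of cox4i1l without mutant replicate 1 or 3 or wild-type replicate 2. cox6b1 made up 17.6 ± 3.25% of the cox6b1 and cox6b2 pair in mutants and 7.81 ± 0.324% in wild type. ndufa4 had 98.1, 56.5 and 75.8 CPM in mutants and 63.5, 52.2 and 45.2 CPM in wild type, with overlap, and did not pass (0.59 ± 0.18, adjusted p = 0.0699). Nor did cox8b (0.46 ± 0.35), cox7a1 (-0.36 ± 0.26) or cox4i2 (-0.11 ± 0.19).

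The remaining members leaned the other way at 2 days. Of 87 members tested, 11 had a positive log2 fold change and 76 a negative one, where 50.2% of all genes were positive, and the median was -0.21 against 0.0017 over all genes tested. By the test 3 passed as higher and 3 as lower, beside 4.7% and 2.17% of all genes, so the share of members called, 6.9%, was close to the 6.86% of all genes. sdhb, the iron-sulfur subunit of complex II, had 75.9, 75.4 and 69.6 CPM in mutants against 121, 111 and 97.2 CPM in wild type (-0.50 ± 0.11, adjusted p = 0.0197). cox5ab, a gene of subunit 5a of complex IV, had 80.6, 83.2 and 83.7 CPM in mutants against 131, 133 and 99.2 CPM in wild type (-0.48 ± 0.12, adjusted p = 0.036). uqcrh had 100.0, 101 and 103 CPM in mutants against 149, 147 and 133 CPM in wild type (-0.43 ± 0.10, adjusted p = 0.0264). In all 3 the groups did not overlap, as in 46 of the 87 members, beside 31.7% of all genes tested.

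The count at 2 days depended on single libraries. Without wild-type replicate 3, the library that stood apart, 3 members were higher and 21 lower in mutants, and the fit of all 36 libraries called 4 higher and 20 lower. Leaving out mutant replicate 1 or 3 gave 3 or 1 calls, and leaving out wild-type replicate 1 or 2 gave 3 or 2. Scaled by library size only, 3 were higher and 7 lower. The share of all genes called under these settings is not given here, so these counts do not show a trait of the members. Among other genes of the pathway at 2 days, the complex IV assembly list of 22 tested genes had 1 higher in mutants and 3 lower, the lower ones being cox11 (-0.76), cox17 (-0.51) and cox20 (-0.70), which take part in the insertion of copper into complex IV. Erythroid markers were higher in mutants in 9 of 11 cases, at a summed level of 2606 to 3340 CPM in mutants against 383 to 1903 CPM in wild type, and their part was not tested.

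At 14 days cox6a2 and ndufa4 were lower in mutants. These 2 of 90 members passed, beside 2.31% of all genes called higher and 2.5% called lower. cox6a2 had 35.9, 39.3 and 35.1 CPM in mutants against 57.1, 51.5 and 55.3 CPM in wild type, a log2 fold change of -0.58 ± 0.12 (adjusted p = 0.0204). ndufa4 had 68.8, 73.0 and 54.0 CPM in mutants against 91.9, 105 and 96.9 CPM in wild type, a log2 fold change of -0.60 ± 0.14 (adjusted p = 0.0392). In neither gene did the groups overlap. cox4i1l (-0.82 ± 0.22, adjusted p = 0.0572), cox5b2 (-0.54 ± 0.15, adjusted p = 0.0736) and cox8b (-0.45 ± 0.14, adjusted p = 0.0997) were separated between groups without passing. At 14 days 18 of the 90 members had a positive log2 fold change, beside 49.2% of all genes, and 14 did not overlap between groups, beside 27.3%. 20 of the 21 complex IV members tested had a negative log2 fold change, with a median of -0.31, and the median over the 90 members was -0.15 against -0.01 over all genes. Mutant replicate 3 stood lowest. The mean log2(CPM + 0.5) over the members was 6.47, 6.55 and 6.25 in mutants against 6.49, 6.58 and 6.58 in wild type. Over the complex IV members it was 6.35, 6.45 and 6.11 in mutants against 6.52, 6.63 and 6.68 in wild type. The part of replicate 3 in these medians was not tested. Both calls were lost without mutant replicate 1 or 3 or without wild-type replicate 2 or 3 (0 calls each), and without mutant replicate 2 there were 4, all lower. Slow muscle markers were lower in 2 of 8 cases at 14 days and fast muscle markers in 1 of 18, with 1 higher. The median log2 fold change was -0.39 for the slow muscle list and -0.33 for the heart list, of which 0 of 8 passed. The summed level was 1563 to 1676 CPM in mutants against 1746 to 2115 CPM in wild type for slow muscle, and 179 to 211 CPM in mutants against 191 to 235 CPM in wild type for heart, with no marker at 0. Their part was not tested.

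A test of the genotype by stage interaction over all 36 libraries called 19 of 89 members, beside 25.5% of all genes. Among them were cox5b2 (adjusted p = 1.65e-05), ndufa4 (0.000404), cox4i1l (0.000406) and cox6b1 (0.00237). The log2 fold change of cox5b2 was 2.34 at 2 days, 0.55 at 5 days, -0.55 at 9 days and -0.54 at 14 days, and that of cox4i1l was 2.35, 0.50, -0.25 and -0.82 at the same stages. Without replicate 1 or 2 of every group the test called 7 or 6 members.

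**Figure D4:**
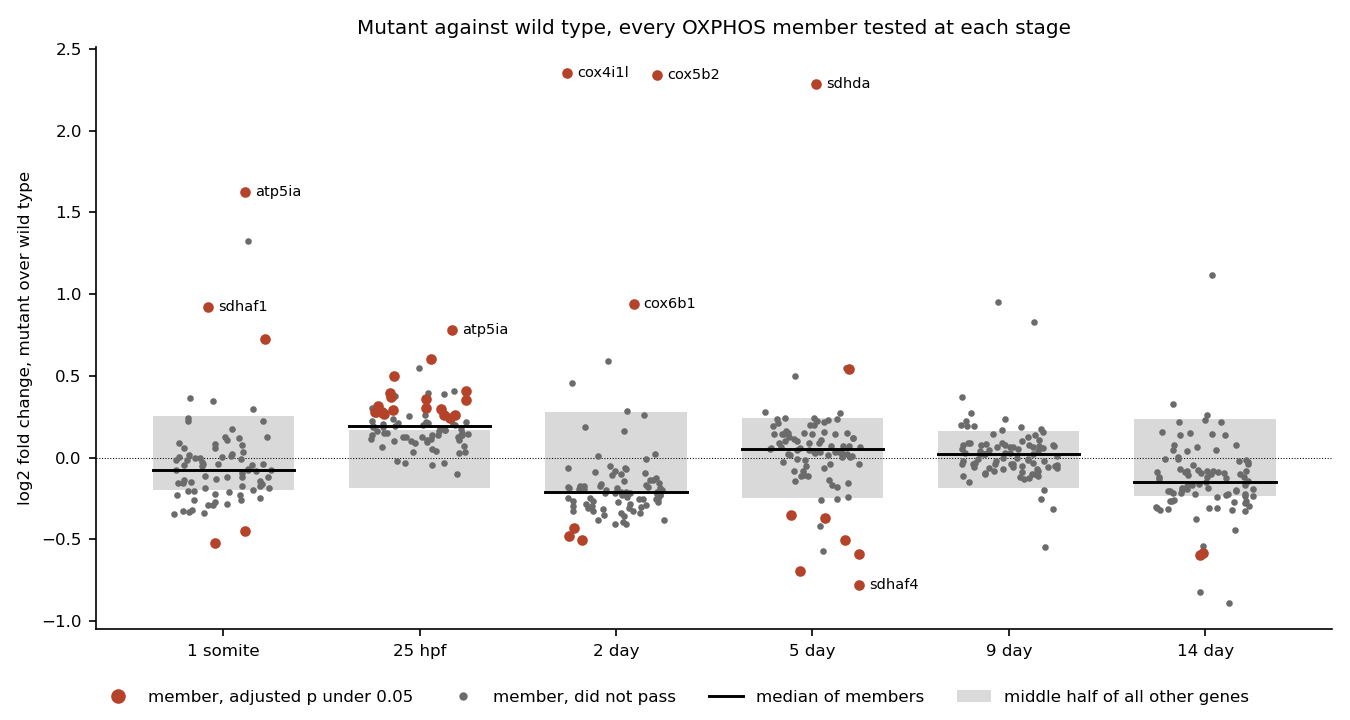
Log2 fold change of mutant over wild type for every member tested at each stage; red points passed at an adjusted p under 0.05, the black bar is the members' median, and the grey box spans the interquartile range of all other genes. The members' median lies above 0 at 25 hpf (0.19) and below it at 2 days (-0.21), and no point is red at 9 days.

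At 25 hpf most members leaned higher in mutants, and members from 4 of the 5 complexes passed the test. Of 84 tested, 19 passed as higher and 0 as lower, beside 6.82% and 6.75% of all genes. 79 of the 84 had a positive log2 fold change, beside 49.5% of all genes, with a median of 0.19 against -0.0035 over all genes. The calls fell in complex I (12 of 35), complex IV (3 of 17), complex V (3 of 15) and complex II (1 of 4), with 0 of 8 in complex III. Complex III still had a median log2 fold change of 0.18, with 7 of 8 positive. The medians of complexes I, IV, V and II were 0.21, 0.19, 0.16 and 0.13. The differences were small.

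atp5ia led them, with 33.3, 36.8 and 32.2 CPM in mutants against 21.0, 18.4 and 21.3 CPM in wild type, a log2 fold change of 0.78 ± 0.10 (adjusted p = 5.93e-05). ndufa4 had 23.0, 21.0 and 24.3 CPM in mutants against 13.5, 14.5 and 17.4 CPM in wild type, a log2 fold change of 0.61 ± 0.13 (adjusted p = 0.00345). Of the complex I genes, ndufa1, a short subunit of the membrane arm, had 61.6, 78.9 and 73.6 CPM in mutants against 45.7, 47.2 and 60.9 CPM in wild type (0.50 ± 0.11, adjusted p = 0.00439). The groups of each of these 3 genes lay apart. ndufs5, an accessory subunit on the intermembrane side, had 75.5, 76.7 and 73.3 CPM in mutants against 55.1, 54.2 and 63.6 CPM in wild type (0.40 ± 0.082, adjusted p = 0.00289). atp5c1, which encodes the central stalk (gamma) of the ATP synthase, had 429, 415 and 402 CPM in mutants against 313, 319 and 354 CPM in wild type (0.36 ± 0.072, adjusted p = 0.00253). These 2 were apart as well. At 25 hpf the groups did not overlap in 31 of the 84 members (36.9%), beside 30.3% of all genes tested.

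The other 14 calls had log2 fold changes between 0.24 and 0.39. They were ndufv3 (0.39), ndufa5 (0.37), ndufb4 (0.35), atp5g3b (0.32), ndufs4 (0.31), cox8a (0.30), ndufa3 (0.29), ndufb1 (0.28), ndufb10 (0.28), ndufb7 (0.28), cox7a2a (0.27), sdhc (0.26), ndufv2 (0.26) and ndufa9a (0.24). 7 of the 19 calls were kept whichever library was left out: atp5c1, atp5ia, ndufa1, ndufa4, ndufa5, ndufb4 and ndufs5. Without wild-type replicate 3 there were 36 calls, without wild-type replicate 1 or 2 there were 10 or 8, and without mutant replicate 1 or 2 there were 8 each, all of them higher. A fit that took its spread from all 36 libraries called 4.

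Genes on other lists of energy metabolism were called at 25 hpf too. In the list of the TCA cycle and pyruvate dehydrogenase, 4 of 22 were higher and 0 lower. They were led by mdh1ab, a gene of the cytosolic and not the mitochondrial malate dehydrogenase (0.97 ± 0.11), and suclg1 of succinyl-CoA ligase (0.41 ± 0.078). Of 8 genes of ADP and phosphate transport, 3 were higher, the first being slc25a4, an ADP/ATP carrier (1.301 ± 0.10, adjusted p = 6.93e-08). Of 16 regulators of mitochondrial biogenesis, 2 were lower and 0 higher: pprc1, a coactivator of the PGC-1 family (-0.50 ± 0.092), and esrra, a nuclear receptor that acts on OXPHOS genes in mammals (-0.43 ± 0.12). Fast muscle markers were higher in 17 of 18 cases, at a summed level of 21534 to 24022 CPM in mutants against 14978 to 16081 CPM in wild type, with no marker at 0 in either group. The slow muscle list summed to 1846 to 2133 CPM in mutants against 2132 to 2264 CPM in wild type. The heart list was lower in mutants without overlap, at 186 to 192 CPM against 195 to 209 CPM in wild type. Erythroid markers were higher in 10 of 11 cases and lower in 1, at 2457 to 3257 CPM in mutants against 681 to 992 CPM in wild type. Lens markers were higher in 9 of 10 cases, liver markers in 8 of 13 and neuron markers in 5 of 13. The neuron sums overlapped, at 818 to 962 CPM in mutants and 820 to 823 CPM in wild type. The liver list was already measured at 1 somite, at 2522 to 3016 CPM in mutants and 2542 to 3419 CPM in wild type. No liver marker was at 0 there, so this list need not stand for liver cells. The part of the cells that these lists are meant to mark, and of the lower depth of the mutant libraries, in the OXPHOS result was not tested.

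At 5 days most of the members called belonged to complex II or its assembly factors. 6 of the 9 genes of this group passed: sdhb, sdha, sdhaf1, sdhaf2 and sdhaf4 were lower in mutants and sdhda, near the floor in wild type, was higher. Across all 89 members tested, 6 were lower and 2 higher, beside 7.84% and 6.17% of all genes, and the share of members called, 8.99%, was below the 14% of all genes. The median over the members was 0.05 against 0.0052 over all genes, whereas it was -0.64 for the 4 assembly factors and -0.25 for the 5 subunits of complex II. Complex II is the one enzyme that belongs to both the TCA cycle and the electron transport chain.

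sdha, the flavoprotein that oxidizes succinate, had 345, 348 and 292 CPM in mutants against 448, 379.9 and 419.6 CPM in wild type, a log2 fold change of -0.35 ± 0.10 (adjusted p = 0.0434). sdhb, which carries electrons onward through its iron-sulfur clusters, had 130.2, 138 and 125 CPM in mutants against 175, 186 and 192 CPM in wild type (-0.50 ± 0.090, adjusted p = 0.00465). All mutant libraries lay below all wild-type libraries in both genes. sdhc and sdhdb, genes of the 2 membrane anchors, did not pass, with -0.14 and -0.25 log2 units. sdhda, the other anchor paralog, was at the edge of detection, with 1.71, 1.55 and 3.41 CPM in mutants against 0.278, 0.533 and 0.535 CPM in wild type (2.29 ± 0.49, adjusted p = 0.0119). sdhda met the filter on low counts through the mutant libraries, though its call was kept with no filter. It had far fewer counts than sdhdb, and reads shared between the copies make it uncertain.

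sdhaf2, which attaches the flavin to SDHA, had 20.3, 23.0 and 20.5 CPM in mutants against 35.4, 31.3 and 35.8 CPM in wild type (-0.69 ± 0.12, adjusted p = 0.00314). sdhaf4, which binds flavinated SDHA before it joins SDHB, had 8.56, 8.40 and 10.23 CPM in mutants against 14.4, 18.1 and 13.9 CPM in wild type (-0.78 ± 0.16, adjusted p = 0.00931). sdhaf1, needed for the iron-sulfur clusters of SDHB, had 8.84, 7.76 and 10.04 CPM in mutants against 14.8, 13.8 and 11.5 CPM in wild type (-0.59 ± 0.16, adjusted p = 0.034). The groups of all 3 were apart. sdhaf3, which acts with SDHAF1, was apart too (9.27, 7.11 and 8.67 CPM in mutants and 10.96, 9.71 and 12.8 CPM in wild type) but did not pass (adjusted p = 0.127). At 5 days the groups did not overlap in 30 of the 89 members (33.7%), close to the 33% of all genes tested.

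**Figure D5:**
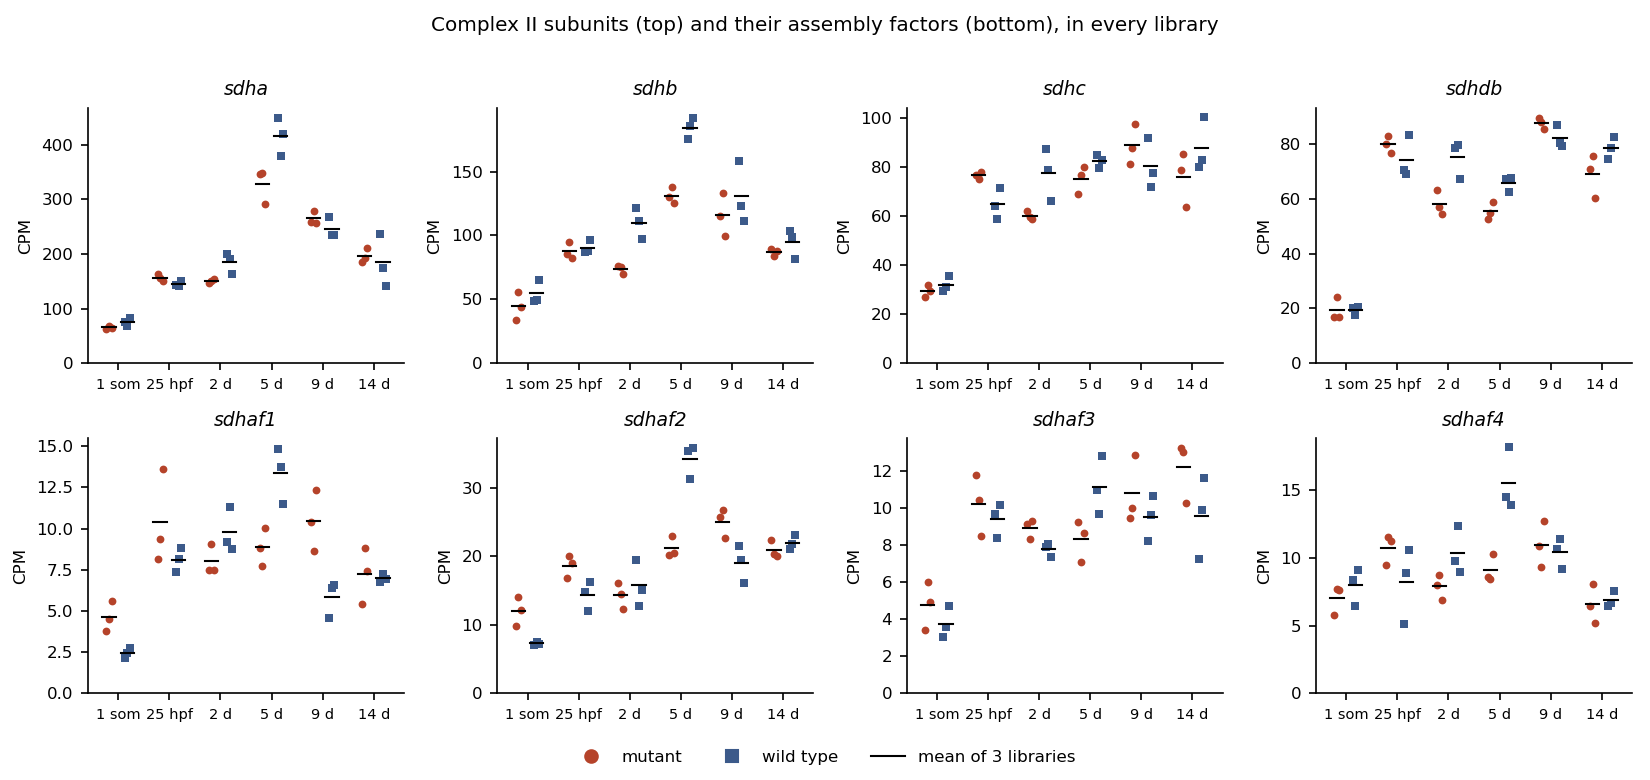
CPM of 4 complex II subunits (top) and the 4 assembly factors (bottom) in every library by stage, with mutant circles left of wild-type squares and a bar at the mean of 3 libraries; each axis starts at 0. At 5 days the wild-type squares of sdha, sdhb, sdhaf1, sdhaf2 and sdhaf4 form a peak, and the mutant circles lie below them.

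sdha, sdhb and the 4 assembly factors had their highest wild-type mean at 5 days, while sdhc, sdhda and sdhdb did not. In wild type sdha rose between 2 and 5 days (1.16 ± 0.13, adjusted p = 1.03e-05) and fell between 5 and 9 days (-0.72 ± 0.11, adjusted p = 0.000466). All 4 assembly factors rose between 2 and 5 days and 3 of them fell between 5 and 9 days: sdhaf1 (-1.15 ± 0.18), sdhaf2 (-0.80 ± 0.14) and sdhaf4 (-0.54 ± 0.16). sdhb fell in the same step (-0.45 ± 0.14). In mutants sdha had 147, 150.1 and 155 CPM at 2 days, 345, 348 and 292 CPM at 5 days and 258, 279 and 257 CPM at 9 days, a peak at the same stage but lower. sdhaf2 had 16.1, 14.5 and 12.3 CPM at 2 days, 20.3, 23.0 and 20.5 CPM at 5 days and 25.7, 26.8 and 22.7 CPM at 9 days in mutants, with no peak at 5 days. The steps and the mutant comparison share the wild-type libraries of 5 days, so they are not independent of each other.

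At 1 somite sdhaf1 and sdhaf2 differed in the opposite direction. sdhaf2 had 9.83, 14.1 and 12.2 CPM in mutants against 7.05, 7.58 and 7.25 CPM in wild type (0.72 ± 0.17, adjusted p = 0.0164), and sdhaf1 had 3.81, 4.53 and 5.64 CPM in mutants against 2.16, 2.45 and 2.78 CPM in wild type (0.92 ± 0.25, adjusted p = 0.0315). Both genes passed the interaction test, sdhaf2 with an adjusted p of 7.18e-05 and sdhaf1 with 0.000508, as did sdhaf4 (0.0326).

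Outside complex II, 2 further members passed at 5 days. ndufa10, an accessory subunit of complex I with a fold like that of nucleoside kinases, had 86.3, 94.0 and 99.5 CPM in mutants against 121, 109.6 and 128 CPM in wild type (-0.37 ± 0.10, adjusted p = 0.0351). atp5ia had 27.7, 28.2 and 31.1 CPM in mutants against 16.8, 19.95 and 22.7 CPM in wild type (0.54 ± 0.13, adjusted p = 0.0205). Both pairs of groups were apart.

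Of the 8 calls at 5 days, those of sdhaf2 and sdhb were kept whichever library was left out. Without mutant replicate 1, 2 or 3 there were 5, 3 and 5 calls, and without wild-type replicate 1 or 3 there were 3 and 12. Scaled by library size only, which moved the median of all genes to -0.17, the members' median was -0.12, with 1 member higher and 15 lower.

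Assembly factors of complex IV were also lower in mutants at 5 days, in 12 of 22 cases with 0 higher and a median log2 fold change of -0.43. higd1a, a small inner membrane protein that binds complex IV (-0.93 ± 0.12, adjusted p = 0.000802), sco2 (-1.19 ± 0.20), cox20 (-0.84 ± 0.16) and cox17 (-0.57 ± 0.11) had the smallest p, the copper carriers sco2 and cox17 among them. None of the 21 complex IV subunits tested passed at that stage. Among other subunits and electron carriers 5 of 10 were lower and 0 higher. gpd2, the mitochondrial glycerol-3-phosphate dehydrogenase that feeds electrons to ubiquinone, averaged 5.05 ± 1.72 CPM in mutants and 15.3 ± 0.606 CPM in wild type (SD, n = 3 each), a log2 fold change of -1.57 ± 0.21 (adjusted p = 0.000792). It was lower in mutants at 25 hpf, 2 days and 14 days too, with log2 fold changes of -0.81, -1.02 and -1.89. cycsb, a cytochrome c gene, was lower (-0.42 ± 0.10), as was etfdh, which passes electrons from fatty acid oxidation to ubiquinone (-0.35 ± 0.094).

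The TCA cycle list went the other way at 5 days, with 4 of 23 higher and 0 lower: fh, fumarase (0.63 ± 0.092), cs, citrate synthase (0.45 ± 0.10), idh2 (0.31 ± 0.075) and dlst (0.34 ± 0.10). sdha and sdhb, which act in the same cycle, are members here and were not on that list. Of 11 genes of ADP and phosphate transport 3 were higher, slc25a5, vdac1 and vdac2. Fast muscle markers were higher in 13 of 18 cases at 5 days, at 82410 to 84606 CPM in mutants against 58093 to 61371 CPM in wild type with no marker at 0, and their part in these differences was not tested.

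At 1 somite few members differed. Of 80 tested, 3 were higher and 2 lower in mutants, beside 6.77% and 6.79% of all genes, and the median was -0.08 against 0.02 over all genes. atp5ia had the largest difference, with 10.3, 18.4 and 12.6 CPM in mutants against 3.89, 4.46 and 4.95 CPM in wild type, a log2 fold change of 1.63 ± 0.23 (adjusted p = 0.000765), and was the one call kept whichever library was left out. Its paralog atp5ib, at 29.4, 39.8 and 38.7 CPM in mutants and 40.0, 38.9 and 43.1 CPM in wild type, did not pass (-0.17 ± 0.12). ndufv1, which binds FMN where complex I takes up electrons from NADH, had 44.6, 57.0 and 51.5 CPM in mutants against 64.5, 64.6 and 80.5 CPM in wild type (-0.45 ± 0.12, adjusted p = 0.0275). uqcrh had 118, 190.4 and 154 CPM in mutants against 217, 209 and 239 CPM in wild type (-0.52 ± 0.14, adjusted p = 0.0316). The mutant libraries spread more widely than the wild-type ones at this stage, with mean log2(CPM + 0.5) over the members of 4.88, 5.36 and 5.08 in mutants against 5.11, 5.06 and 5.29 in wild type. Without mutant replicate 2, the highest, there were 3 higher and 12 lower, without mutant replicate 1 or 3 there were 3 and 1 calls, and without wild-type replicate 1 or 3 there was 1.

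At 9 days no member passed in edgeR's test of mutants against wild type, nor in DESeq2, beside 0.786% of all genes called higher and 1.12% called lower. At an unadjusted p under 0.05, 4 members were higher and 1 lower, beside 7.38% and 8.49% of all genes. The median log2 fold change of the 89 members was 0.022.

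Of the 90 members tested at 1 stage or more, 33 passed at 1 or more of the 6 stages, which is 36.7% beside 32.7% of all genes so tested, and 6 passed at 2 or more, which is 6.67% beside 8.84%. atp5ia passed at 3 stages, and ndufa4l2 was tested at none. Averaged over the stages in the fit of all 36 libraries, 3 of 89 members were higher in mutants and 5 lower, beside 9.58% and 10.9% of all genes, or 3 and 18 when scaled by library size only. atp5ia was the highest (0.58 ± 0.071, adjusted p = 2.08e-07), with a positive log2 fold change at each stage, while its paralog atp5ib was between -0.22 and 0.16. The others higher were ndufv3 (0.22 ± 0.054) and ndufa9a (0.15 ± 0.045), both accessory genes of complex I. Lower were sdhb (-0.28 ± 0.057, adjusted p = 0.000462), uqcrh (-0.28 ± 0.052, adjusted p = 0.000154), ndufa10 (-0.26 ± 0.048, adjusted p = 0.000145), cox6b2 (-0.15 ± 0.052) and uqcrc1, a core protein of complex III (-0.12 ± 0.039). sdhb, uqcrh and ndufa10 had a negative log2 fold change at each of the 6 stages, and all 3 changes were below 0.3 log2 units on average.

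For 9 members the transcript table held at least 2 matched transcripts that together had 20 or more counts in every library, and the share of the most abundant one was compared after the values had been seen. For atp5h, subunit d of the peripheral stalk of the ATP synthase, that share had a lowest, median and highest value of 75.5%, 89.8% and 93.1% over the mutant libraries, against 90.2%, 96.4% and 99.1% over the wild-type libraries, and the groups did not overlap at 5 of 6 stages. The matched transcripts of atp5h summed to 0.944 times its gene count, and the counts outside them, which do not enter this share, were not examined. For uqcrb, a subunit of complex III, the values were 69.0%, 88.3% and 99.0% in mutants against 90.3%, 99.0% and 100% in wild type, without overlap at 4 stages. Over all genes compared in this way, 233 of 2388 (9.76%) were separated in the same direction at 4 or more stages.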

How the data were processed

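RNA was taken from whole animals and sequenced after a stranded polyA protocol, per the labels' protocols. Reads were trimmed with Trimmomatic 0.36 and quantified with kallisto 0.43.0, with GRCz10 named as the build, per the submitters' processing notes. The gene table that was deposited holds estimated counts that need not be whole; no source used here gives how transcripts were summed to genes. kallisto divides reads between similar sequences, so close copies can exchange counts.

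The estimated counts were rounded and tested in R 4.3.3 with edgeR 4.0.16 (filterByExpr, TMM scaling, quasi-likelihood test, Benjamini-Hochberg adjustment over all genes tested, threshold 0.05), fitting the 6 libraries of each comparison, and all 36 for the averaged effect and the interaction. Errors after ± are SE for log2 fold changes and SD for levels. Levels are CPM with TMM sizes. The replicates are called biological by the labels' protocols. The test at 25 hpf and that of the averaged effect were checked on simulated counts, with changes set in well-counted genes. That check did not cover the interaction, the wild-type steps or changes in genes near the floor. Alternatives were DESeq2 1.42.0, other scalings, no filter, a replicate block, a fit of all libraries and leaving out each library. Calls under these alternatives are counted for members alone, without the share of all genes. Members, gene lists and marker lists were chosen with earlier results of these data known. Genes were named by rule: in each mutant comparison up to 12 called members per direction by size, up to 10 by p for the averaged effect and the interaction, up to 6 per direction in each wild-type step with a mean of at least 5 CPM, the members of a list of paralog pairs, and up to 4 called genes of each other list by p. The remaining calls at 25 hpf, cox4i2 at its first step and sdhaf3 were singled out after their values were seen. So were the members that did not follow the mean of the others and the set of complex IV genes with a wide span.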

Additional observations from a re-analysis of the deposited data

Results flagged for a closer look

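The mutant effect differed between stages for 19 of the 89 members fitted (21.3%, beside 25.5% of all genes), by the test of genotype by stage in all 36 libraries with edgeR's quasi-likelihood test and Benjamini-Hochberg adjustment. 4 of the 19, cox4i1l, cox5b2, ndufa4 and sdhaf2, were kept whichever replicate number was left out. Among complex IV genes with a wide span these were cox5b2 (adjusted p = 1.65e-05), ndufa4 (0.000404), cox4i1l (0.000406) and cox6b1 (0.00237), whose log2 fold changes were 2.34, 0.59, 2.35 and 0.94 at 2 days and -0.54, -0.60, -0.82 and -0.38 at 14 days. At 1 somite, a stage in this test, cox4i1l was at 0 CPM and cox5b2 and cox6b1 were close to absent. Among complex II assembly factors the calls were sdhaf2 (7.18e-05), sdhaf1 (0.000508) and sdhaf4 (0.0326). Their log2 fold changes were 0.72, 0.92 and -0.16 at 1 somite and -0.69, -0.59 and -0.78 at 5 days. Complex V gave atp5ia (0.000771; 1.63 at 1 somite and 0.15 at 14 days), atp5b (0.00176), atp5h (0.0265), atp5d (0.0348) and atp5e (0.0451). For atp5b, the catalytic beta subunit, the log2 fold change was 0.17 at 25 hpf and -0.29 at 2 days. The rest were ndufv1 (0.019), ndufa1 (0.0236), ndufa11 (0.0461), ndufs1 (0.048) and ndufa5 (0.048) of complex I, cox8a (0.0296) of complex IV and sdhc (0.0374) of complex II. For ndufa1 the log2 fold change was 0.50 at 25 hpf and -0.0087 at 2 days.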

How the results depend on the processing

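The number of members called moved by more than 1.5 times as follows. These are counts of members alone, without the share of all genes called under the same setting. Against 5 calls at 1 somite, DESeq2 gave 3, the replicate block 2 and the fit of all 36 libraries 8. At 25 hpf (19) scaling by library size only gave 9, DESeq2 10 and all libraries 4, and at 2 days (6) these gave 10, 12 and 24, the last with 4 higher and 20 lower. At 5 days (8) library size only gave 16 and the replicate block 5, at 9 days (0) all libraries gave 1, and at 14 days (2) DESeq2 gave 4, the block 0 and all libraries 4. In wild type all libraries gave 23 for 2 days against 25 hpf (36), and library size only gave 26 for 9 against 5 days (45) and 29 for 14 against 9 days (16). Library size only gave 21 for the averaged effect (8), and DESeq2 32 for the interaction (19). The replicate numbers did not pair the samples, with correlations of same-numbered deviations from -0.26 to 0.11. Leaving out 1 library gave 1 to 15 calls at 1 somite, 8 to 36 at 25 hpf, 1 to 24 at 2 days, 3 to 12 at 5 days, 0 at 9 days and 0 to 4 at 14 days. In wild-type steps in stage order it gave 72 to 76, 13 to 63, 19 to 47, 27 to 40 and 8 to 20. Leaving out 1 replicate number gave 6 to 10 for the averaged effect and 6 to 17 for the interaction. Reversed under library size only, for 25 hpf against 1 somite, were uqcrh (0.0064, not passing) and ndufa4l (0.24). Of the named values, DESeq2 kept 330, with 14 stronger and 9 weaker. The causes were not tested, and 3 libraries a group limit the precision.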
